A study of Homo sapiens with 22 samples.

Results

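The semaphorins, plexins and neuropilins are 31 of the 63677 genes in the deposited tables. They comprise 20 semaphorins, 9 plexins and 2 neuropilins, chosen by gene symbol and matched to their Ensembl identifiers. Their RNA was measured in SH-SY5Y, a human neuroblastoma cell line, and in KELLY, a neuroblastoma line with amplified MYCN.

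SH-SY5Y cells carried lentiviral shRNAs and had been selected with puromycin, the controls included. The shRNAs were directed at the CASC15-003 transcript (sh003), at the CASC15-004 transcript (sh004) or at a scrambled non-mammalian sequence (control). CASC15 is a long noncoding RNA gene of the neuroblastoma susceptibility locus at 6p22.3. Monolayers treated with retinoic acid for 7 days (day 7) comprised 3 sh003, 2 sh004 and 2 control libraries. Untreated monolayers in 10% serum (day 0) comprised 3 sh003, 2 sh004 and 3 control libraries. The labels give the retinoic acid concentration as 10 mM, and give the serum of day 7 as 10% in one text and 1% in another. Sphere cultures comprised 2 sh003, 2 sh004 and 1 control library. KELLY cells were measured once with a SOX9 siRNA and once with a control siRNA. The labels do not say whether an SH-SY5Y line is a clone or a pool.

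Each CASC15 transcript was targeted by shRNAs numbered sh1 and sh2, whose target sequences are shown because they define the knockdown groups and because a match to a member would bear on every comparison. All 4 matched CASC15 on chromosome 6 in the sense orientation, in 2 of its 8 transcripts of GENCODE release 29. None matched any of the 335 transcripts of the members. Only exact matches of all 21 bases were searched, so partial matches to members were not looked for.

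sh003 sh1: ctagcactgacctccttcatt
sh003 sh2: ctttccatcagccaacaatat
sh004 sh1: caggctgttcccagggattta
sh004 sh2: taggaataccttacatccaat

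Semaphorins are guidance ligands that steer axons, migrating cells and vessels, mostly by repulsion. Class 3 semaphorins are secreted, and most bind a neuropilin, which has no signalling domain of its own and passes the signal to a plexin of the A type. Classes 4, 5 and 6 are membrane proteins that bind plexins directly, and SEMA7A is held by a lipid anchor. Plexins carry a GTPase-activating domain that lowers R-Ras and Rap activity. In the sympathetic lineage from which neuroblastoma arises, SEMA3A and SEMA3F acting on NRP1 and NRP2 guide neural crest migration and axon growth.

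Libraries held 11.9 M to 62.1 M assigned reads. In the monolayers a batch number is given in the labels, and sh003 and control libraries of a batch deviated together from their group means. Batch 3 holds 1 control and 1 sh003 library, both at day 0. For 1 sh003 library at day 7 and 1 at day 0 the culture tag contradicts the title, and the titles were used. CYP26A1, a retinoic acid target that degrades retinoic acid, lay at 9.0 to 687 RPKM (reads per kilobase of gene length, scaled to library depth) in the 7 libraries titled day 7. It did not exceed 0.271 RPKM in the 8 titled day 0. The lowest of the day 7 libraries was sh004 sh2, at 9.0 RPKM, and the others reached at least 221 RPKM. CASC15, summed over its transcripts, measured 2.08, 3.27 and 3.38 RPKM in sh003, 1.31 and 1.48 RPKM in sh004 and 3.33 and 3.26 RPKM in control libraries at day 7. At day 0 it measured 2.65, 1.95 and 1.57 RPKM in sh003, 1.16 and 1.14 RPKM in sh004 and 1.52, 1.32 and 2.38 RPKM in control libraries. Its gene-level values with sh004 were thus under the control range on both days. With sh003 at day 7, sh1 was well under both controls and the sh2 libraries were close to them, and at day 0 sh003 and control overlapped. CASC15 was not called with either knockdown by limma. Of 12 noradrenergic neuroblast markers, 10 or 11 reached an RPKM of 1 in every library of each monolayer group. Of 4 endothelial markers (PECAM1, CDH5, TEK and VWF), PECAM1 was at 0 in every library, and their summed level did not exceed 0.507 RPKM in monolayers and 0.145 RPKM in spheres. In KELLY that sum was 1.64 RPKM with SOX9 siRNA and 3.26 RPKM with control siRNA.

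Of the 31 members, 26 reached an RPKM of 1 in at least 2 of the 15 monolayer libraries and were tested, and 17 reached it in all 15. The 5 that were not tested were SEMA3E, SEMA3G, SEMA4A, SEMA6B and SEMA7A, none of which reached an RPKM of 1 in any monolayer. In control cells at day 0 the members spanned the whole range of expression. PLXNB2, a receptor for class 4 semaphorins, led them with a mean of 50.2 ± 3.54 RPKM (SD, n = 3), above 95.6% of tested genes. PLXNA1 averaged 27.5 ± 8.04 RPKM, SEMA3C 23.8 ± 22.7, SEMA3A 20.6 ± 27.7, PLXNA2 19.8 ± 6.23, PLXNB1 19.2 ± 3.60, SEMA4C 18.6 ± 3.36 and PLXNA3 13.6 ± 2.13 RPKM. Plexins of the A and B types thus held 5 of the 8 highest means. The SEMA3A mean rests on the batch 3 control, at 52.5 RPKM, against 4.74 and 4.40 RPKM in batches 1 and 2. Both neuropilins had lower means, NRP1 at 6.95 ± 5.95 RPKM and NRP2, the partner of SEMA3F, at 0.960 ± 0.336 RPKM.

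**Figure D1:**
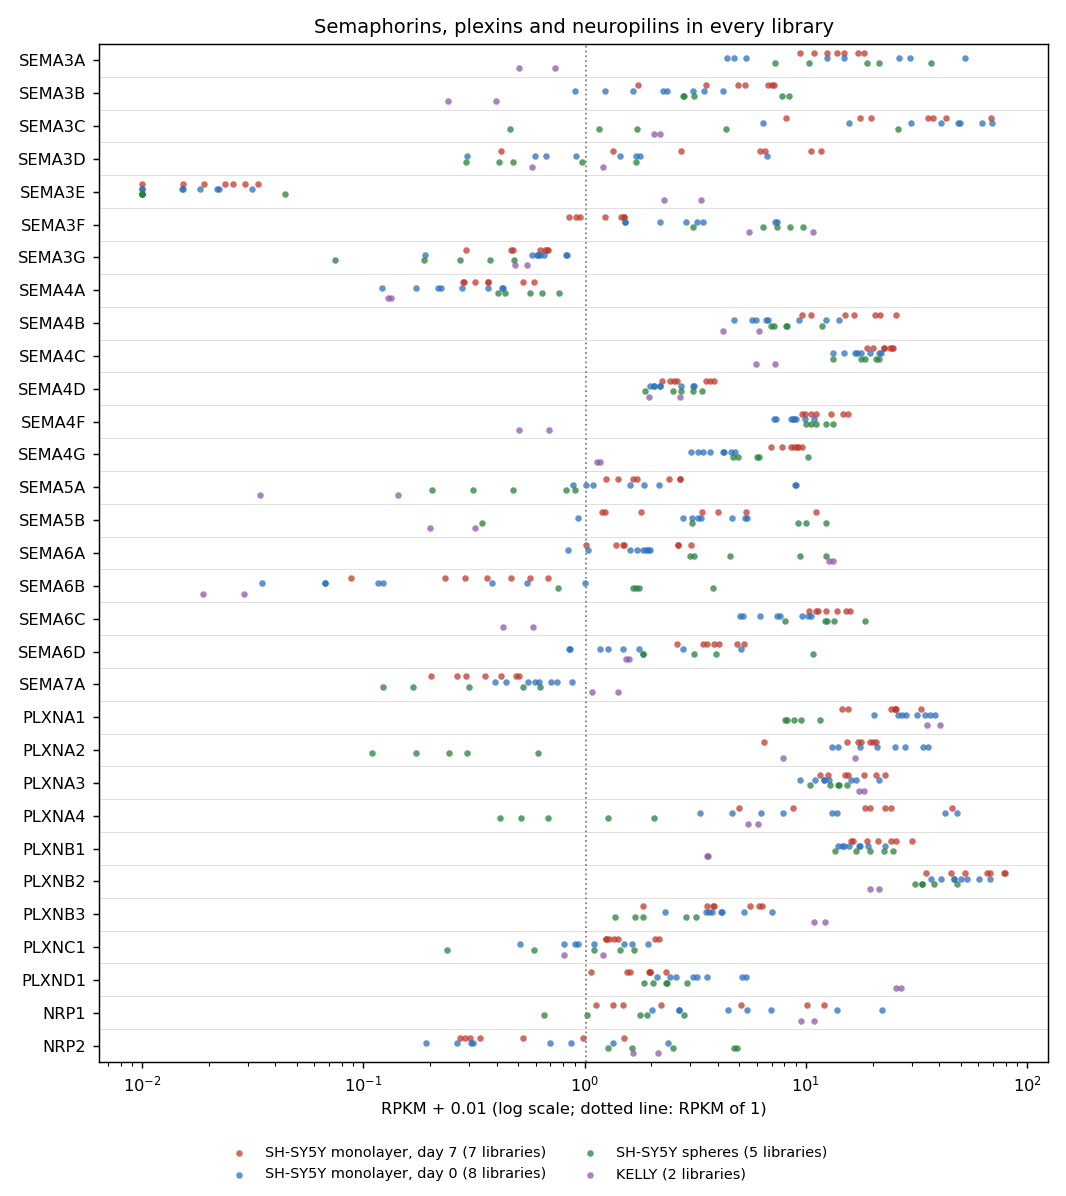
RPKM plus 0.01 of each member on a log axis, with a point for every library and colours for day 7 monolayers, day 0 monolayers, spheres and KELLY. PLXNB2 lies at 34.8 to 79.6 RPKM in all 15 monolayers, SEMA3E is at or under 0.0344 RPKM in all 20 SH-SY5Y libraries, and PLXNA2 lies at 0.606 RPKM or less in spheres.

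The most abundant members were not equally steady. In the sentences that follow, sh003 values run sh1 batch 2, sh2 batch 1 and sh2 batch 2 at day 7, and sh1 batch 3, sh2 batch 1 and sh2 batch 2 at day 0. The sh004 values run sh1 and sh2, both of batch 2, and control values run by batch from 1. PLXNB2 measured 78.4, 67.9 and 52.3 RPKM in sh003, 79.6 and 34.8 RPKM in sh004 and 65.8 and 45.3 RPKM in control cells at day 7. At day 0 it measured 60.8, 68.1 and 46.5 RPKM in sh003, 40.7 and 36.6 RPKM in sh004 and 50.4, 46.6 and 53.7 RPKM in control cells. The days overlapped in all 3 backgrounds, and at day 0 both sh004 libraries were under all sh003 and control libraries.

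SEMA3C, a secreted ligand of NRP1 and NRP2, varied widely. It measured 37.3, 35.6 and 68.6 RPKM in sh003, 43.1 and 17.5 RPKM in sh004 and 19.7 and 8.13 RPKM in control cells at day 7. Its day 0 values were 48.7, 62.3 and 69.2 RPKM in sh003, 29.9 and 40.9 RPKM in sh004 and 15.6, 6.36 and 49.4 RPKM in control cells. The control of batch 3 stood well above the other controls and within the sh003 range.

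PLXNA1 and PLXNA2 are receptors of the A type, through which neuropilin-bound class 3 semaphorins signal. PLXNA1 measured 25.6, 33.0 and 25.1 RPKM in sh003, 24.3 and 15.4 RPKM in sh004 and 25.2 and 14.6 RPKM in control cells at day 7. At day 0 PLXNA1 measured 27.3, 38.1 and 28.3 RPKM in sh003, 34.6 and 31.8 RPKM in sh004 and 36.2, 26.1 and 20.3 RPKM in control cells. Only in sh004 did its days not overlap, with both day 7 libraries lower. PLXNA2 measured 17.3, 17.7 and 19.5 RPKM in sh003, 15.4 and 6.48 RPKM in sh004 and 20.7 and 20.1 RPKM in control cells at day 7. At day 0 PLXNA2 measured 14.0, 35.5 and 33.6 RPKM in sh003, 27.9 and 17.5 RPKM in sh004 and 25.4, 21.0 and 13.1 RPKM in control cells. Both batch 3 libraries gave the lowest values of their day 0 groups.

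SEMA4C, a ligand of plexin B2, was among the steadiest. It measured 24.5, 24.7 and 22.4 RPKM in sh003, 22.5 and 20.0 RPKM in sh004 and 23.9 and 18.8 RPKM in control cells at day 7. At day 0 it measured 16.9, 21.8 and 17.8 RPKM in sh003, 13.2 and 16.6 RPKM in sh004 and 19.5, 14.9 and 21.4 RPKM in control cells. Day 7 was above day 0 without overlap in sh003 and sh004, and the control days overlapped.

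The first comparison of the design is of day 7 with day 0 under retinoic acid, which slows the growth of SH-SY5Y cells and drives them to extend neurites. No untreated day 7 library was analysed here, so retinoic acid, days in culture and any difference in serum cannot be told apart. SEMA4G, a membrane semaphorin of class 4, rose about 2-fold with sh003, with sh004 and in control cells. PLXND1, the receptor of SEMA3E, fell about 2-fold with sh003. With the batch as a term in the fit, SEMA4B and SEMA6C also rose in all 3 backgrounds, SEMA6D rose with sh003, PLXNB1 rose in control cells, and SEMA3F fell with sh003 and in control cells. Since these are bulk RNA measurements, a change in RNA per cell and a change in the mix of cells cannot be told apart. The summed RPKM of the 12 noradrenergic markers ran from 749.7 to 1145 at day 7 and from 1025 to 1448 at day 0 with sh003, from 703 to 3026 and from 1538 to 1731 with sh004, and from 1389 to 1433 and from 1191 to 2214 in control cells. Without the batch term, limma called none of the 11 tested. Their median log2 change was then -0.84 with sh003, -0.48 with sh004 and -0.88 in control cells, with 5, 2 and 4 at an unadjusted p under 0.05. In the same order, 3598, 1601 and 2733 of all 19461 tested genes were at that level. With the batch term 4 of the markers were called with sh003, 2 with sh004 and 2 in control cells, all lower at day 7. That fit called 14.3%, 2.11% and 7.68% of all tested genes in the same order. The medians of the markers were then -1.17, -0.48 and -0.59. The part of the mix of cells in the members' values was not tested.

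SEMA4G measured 8.84, 9.10 and 9.197 RPKM in sh003 cells at day 7, against 4.76, 4.57 and 3.69 RPKM at day 0. With sh004 it measured 7.79 and 6.95 RPKM at day 7, against 3.00 and 3.43 RPKM at day 0. Control cells had 9.64 and 8.58 RPKM at day 7, against 3.24, 4.27 and 4.19 RPKM at day 0. Every day 7 library lay above every day 0 library, and the 15 libraries held 202 to 1552 SEMA4G reads each. On the log2(RPKM + 0.5) scale the change was 0.99 (SE 0.14, limma with Benjamini-Hochberg adjusted p = 0.00488) with sh003, 1.08 (SE 0.17, adjusted p = 0.0229) with sh004 and 1.13 (SE 0.15, adjusted p = 0.00631) in control cells. In the 6 pairs of libraries that share an shRNA and a batch, the difference ran from 0.92 to 1.44, higher at day 7 in 6 of 6. Without the 2 libraries whose tag contradicts the title, SEMA4G was called with sh003 (1.04, adjusted p = 0.0405) and in control cells (1.13, 0.0284) but not with sh004 (1.08, 0.0815). Without batch 1, which held the fewest reads, it was called in none (adjusted p = 0.0750 with sh003, 0.0810 with sh004 and 0.363 in control cells). Its call in control cells ended without the day 7 library of batch 1 (adjusted p = 0.0903) or of batch 2 (0.0559). With sh004 it ended without any of the 4 sh004 libraries (adjusted p = 0.0513 to 0.260) and without sh003 sh1 at day 7 (0.0505), while the change stayed between 1.00 and 1.17.

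SEMA4G shares 27.4% of its exon bases with genes on the opposite strand, MRPL43 and AL133215.1. The part of each in that share was not worked out, and values of AL133215.1 are not given here. MRPL43 encodes a mitochondrial ribosomal protein. The library kit keeps strand, but whether the counting used it is not given in the sources used here, so reads in the shared bases cannot be told apart. MRPL43 itself lay at 11.5 to 19.9 RPKM at day 7 and 12.5 to 17.1 RPKM at day 0. Its log2 change was 0.02 (SE 0.19, limma adjusted p = 1) with sh003, 0.02 (SE 0.23, adjusted p = 1) with sh004 and -0.12 (SE 0.21, adjusted p = 0.933) in control cells.

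PLXND1 measured 1.95, 2.33 and 1.55 RPKM in sh003 cells at day 7, against 3.58, 5.33 and 5.15 RPKM at day 0, with no overlap. It measured 1.97 and 1.06 RPKM at day 7 against 2.42 and 2.12 RPKM at day 0 with sh004, and 1.96 and 1.59 RPKM against 2.58, 3.07 and 3.22 RPKM in control cells. The day 7 libraries were the lower ones in all 3 backgrounds, and in 6 of 6 pairs (-1.46 to -0.25 on the log2 scale). The log2 change with sh003 was -1.08 (SE 0.22, limma adjusted p = 0.0303). With sh004 and in control cells PLXND1 was not called. The sh003 call ended without the sh003 libraries sh2 batch 1 (adjusted p = 0.0956) or sh2 batch 2 (0.127) of day 0, and without sh1 batch 2 (0.0709), sh2 batch 1 (0.0538) or sh2 batch 2 (0.135) of day 7. It also ended without the control of batch 2 at day 0 (0.0525) or without either sh004 library of day 0 (0.0543 and 0.0545), and its log2 change stayed between -1.19 and -0.96 in these fits. Without the 2 libraries whose tag contradicts the title it was not called (adjusted p = 0.165), nor without batch 1 (0.167). In the fit with the batch term its change was -1.12 (SE 0.23, adjusted p = 0.0137).

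Without the batch term, limma called 2 of the 26 tested members with sh003, where 2.35% of all 19461 tested genes were called. It called 1 of 26 with sh004 (0.38% of all genes) and 1 of 26 in control cells (0.956% of all genes). Adding the batch term gave 6 of 26 with sh003 (14.3% of all genes), 3 of 26 with sh004 (2.11%) and 5 of 26 in control cells (7.68%). The median log2 change of the members was 0.13 with sh003, 0.45 with sh004 and 0.37 in control cells, where the medians over all tested genes were 0.05, 0.02 and 0.15 in the same order of backgrounds. Of the 26, 9 were higher at day 7 in all 6 pairs, or 34.6% against 17.7% of all tested genes, and 4 were lower in all 6 pairs, or 15.4% against 12.7%. The 9 were SEMA3B, all of the tested class 4 semaphorins (SEMA4B, SEMA4C, SEMA4D, SEMA4F and SEMA4G), SEMA6C, SEMA6D and PLXNB1. The 4 were SEMA3F, PLXND1, PLXNA1 and PLXNA2. Among the class 4 semaphorins the log2 differences were small for SEMA4D (0.03 to 0.33), SEMA4F (0.17 to 0.54) and SEMA4C (0.18 to 0.75). They were larger for SEMA4B (0.70 to 1.70) and SEMA4G (0.92 to 1.44).

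**Figure D2:**
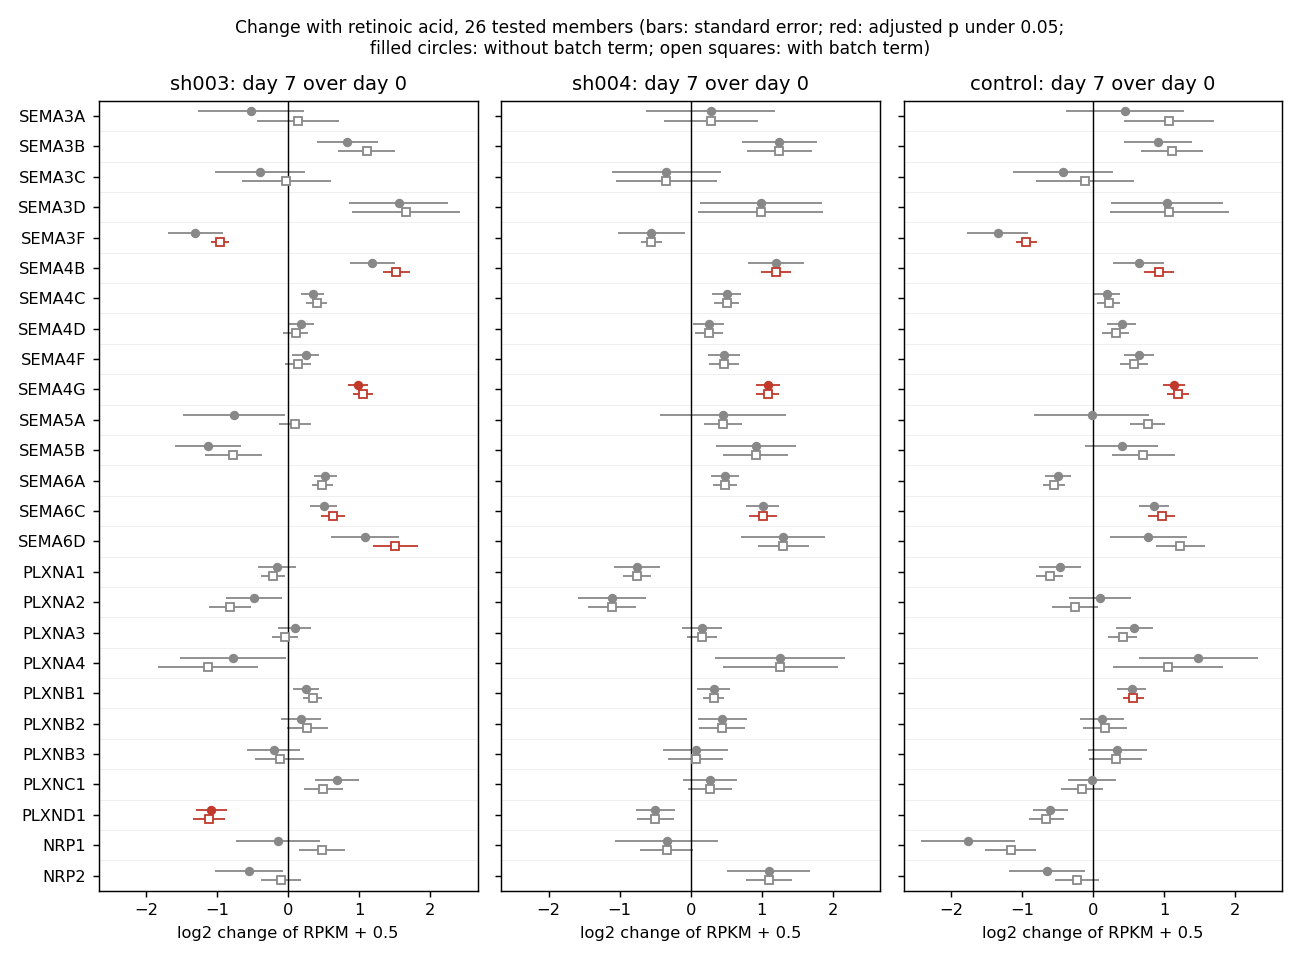
The log2 change of RPKM + 0.5 at day 7 over day 0 for the 26 tested members, with sh003, with sh004 and in control cells, with standard errors. Filled circles are fits without and open squares fits with the batch term, and red marks an adjusted p under 0.05. SEMA4G is red in all 3 panels in both fits.

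Among ligands that passed only with the batch term, SEMA4B, a transmembrane semaphorin, measured 21.5, 25.6 and 20.6 RPKM in sh003 cells at day 7, against 14.1, 9.31 and 6.75 RPKM at day 0. With sh004 it measured 16.5 and 9.57 RPKM at day 7, against 4.74 and 5.68 RPKM at day 0. Control cells had 14.98 and 10.5 RPKM at day 7, against 6.58, 5.96 and 12.3 RPKM at day 0. Only the control days overlapped, through the batch 3 library. The log2 change with the batch term was 1.52 (SE 0.19, limma adjusted p = 0.00194) with sh003, 1.2 (SE 0.21, adjusted p = 0.0229) with sh004 and 0.93 (SE 0.21, adjusted p = 0.0287) in control cells. Without it the adjusted p-values in that order of backgrounds were 0.0726, 0.380 and 0.464. With sh003 the call held when any single library was left out (adjusted p at most 0.0272), and without batch 3 and the batch term it was called as well (1.45, 0.0207). It ended with sh004 without sh1 (0.128) or sh2 (0.0943) of day 0. In control cells it ended without batch 1 (0.140) or batch 2 (0.0713) of day 0, or batch 1 (0.178) or batch 2 (0.132) of day 7.

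SEMA6C, a transmembrane semaphorin of class 6, measured 13.8, 12.3 and 11.1 RPKM in sh003 cells at day 7, against 9.62, 10.6 and 6.20 RPKM at day 0. With sh004 it measured 11.3 and 10.3 RPKM at day 7, against 5.16 and 5.03 RPKM at day 0. Control cells had 15.2 and 15.8 RPKM at day 7, against 7.404, 7.60 and 10.2 RPKM at day 0. No background overlapped between days. The log2 change with the batch term was 0.63 (SE 0.17, limma adjusted p = 0.0369) with sh003, 1.01 (SE 0.20, adjusted p = 0.0320) with sh004 and 0.96 (SE 0.19, adjusted p = 0.0189) in control cells. Without it the adjusted p-values in that order of backgrounds were 0.176, 0.131 and 0.0979. The call with the batch term ended in 10 of 15 fits that left out 1 library with sh003 (adjusted p up to 0.273, without sh2 batch 2 of day 0), in 7 of 15 with sh004 (up to 0.180, without sh2 of day 0) and in 4 of 15 in control cells (up to 0.162, without batch 2 of day 7).

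SEMA6D, a ligand of plexin A1, measured 4.02, 3.42 and 4.89 RPKM in sh003 cells at day 7, against 5.09, 0.849 and 0.836 RPKM at day 0. The high day 0 value is the batch 3 library, and the days overlapped through it. SEMA6D rose with sh003 by 1.51 on the log2 scale with the batch term (SE 0.32, limma adjusted p = 0.0152), and was not called without it (1.08, adjusted p = 0.259). Without batch 3 it was called (1.77, adjusted p = 0.0115). The call with the batch term ended without sh2 batch 1 (0.0745) or sh2 batch 2 (0.131) of day 0, or the same shRNA of batch 1 (0.0553) or batch 2 (0.0529) of day 7. It measured 2.62 and 5.25 RPKM at day 7 against 1.27 and 1.17 RPKM at day 0 with sh004, and 3.57 and 3.82 RPKM against 1.48, 1.75 and 2.78 RPKM in control cells.

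SEMA3F, the secreted ligand of NRP2, was lower at day 7. It measured 1.49, 1.23 and 1.49 RPKM in sh003 cells at day 7, against 7.38, 2.87 and 3.42 RPKM at day 0. With sh004 it measured 0.841 and 0.901 RPKM at day 7, against 1.52 and 1.51 RPKM at day 0. In control cells it measured 0.944 and 1.45 RPKM at day 7, against 2.18, 3.22 and 7.23 RPKM at day 0. No background overlapped, and the highest value of each of 2 backgrounds was its batch 3 library. With the batch term the log2 change was -0.96 (SE 0.13, limma adjusted p = 0.00278) with sh003 and -0.94 (SE 0.14, adjusted p = 0.00739) in control cells. Without it the change was -1.31 (adjusted p = 0.0933) and -1.34 (adjusted p = 0.186), and with batch 3 left out it was -0.94 (0.0551) and -0.91 (0.118). With the batch term the sh003 call held when any single library was left out (adjusted p at most 0.0333), and the control call ended without batch 1 (0.0904) or batch 2 (0.0612) of day 7. The antisense gene SEMA3F-AS1, which shares 2.3% of the exon bases of SEMA3F, lay at 0.768 to 1.46 RPKM at day 7 and 0.448 to 0.922 RPKM at day 0.

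PLXNB1, the receptor of SEMA4D, measured 30.3 and 25.6 RPKM in control cells at day 7, against 22.9, 15.7 and 19.0 RPKM at day 0, without overlap. It measured 18.9, 24.3 and 16.0 RPKM at day 7 against 17.3, 17.6 and 14.0 RPKM at day 0 with sh003, and 21.1 and 16.2 RPKM against 14.5 and 14.9 RPKM with sh004. In control cells it rose by 0.57 on the log2 scale with the batch term (SE 0.14, limma adjusted p = 0.0412), and without it the change was 0.54 (adjusted p = 0.265). The call ended in 11 of 15 fits that left out 1 library (adjusted p up to 0.257, without the control of batch 2 at day 7).

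**Figure D3:**
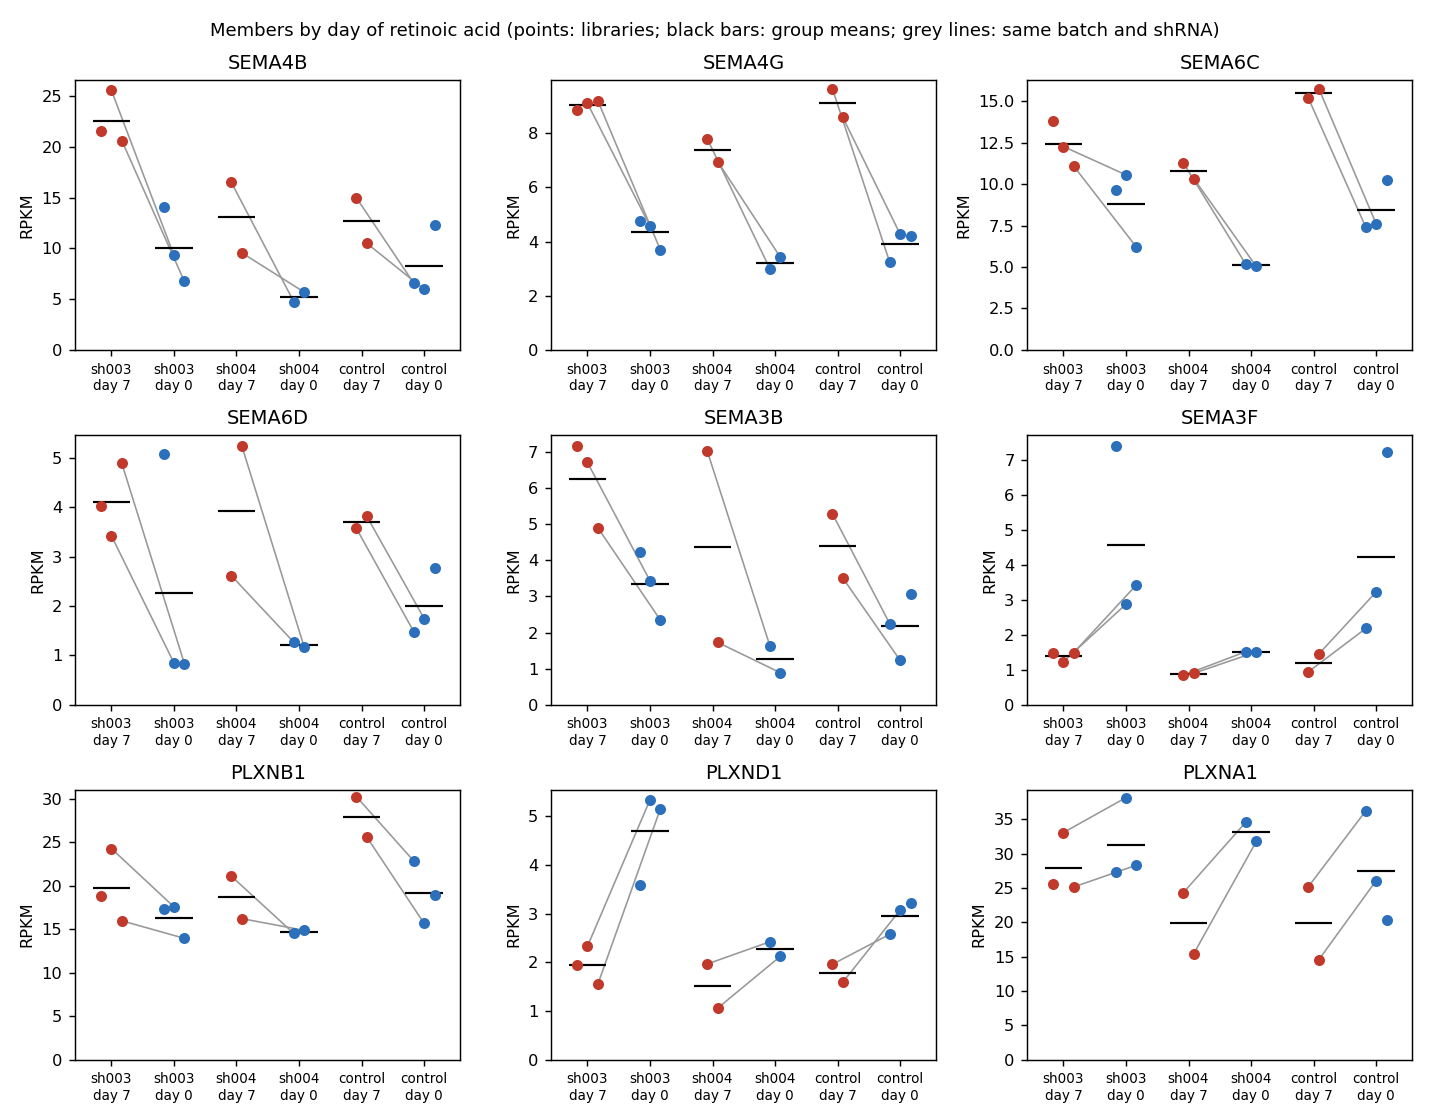
RPKM by library at day 7 and day 0 for 9 members, with sh003, with sh004 and in control cells. Black bars are group means and grey lines join libraries of the same batch and shRNA. Each SEMA4G line runs from 6.95 RPKM or more at day 7 to 4.57 RPKM or less at day 0, and the unjoined day 0 points of SEMA3F at 7.38 and 7.23 RPKM are batch 3.

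Batch 3 stood apart for a few members. Its sh003 and control libraries were both above the other 13 monolayers for 3 members, SEMA3F, SEMA5A and NRP1. The share of all genes with this pattern was not counted, so it cannot be read as particular to the members. SEMA5A, a transmembrane ligand with thrombospondin repeats, measured 9.04 RPKM in the sh003 and 8.94 RPKM in the control library of batch 3, and 0.880 to 2.69 RPKM in the others. NRP1 measured 21.98 and 13.8 RPKM in those libraries, and 1.11 to 12.0 RPKM in the others. For SEMA3A the control of batch 3, at 52.5 RPKM, lay above the other 13 monolayers (4.40 to 29.6 RPKM). The sh003 library of batch 3, at 26.3 RPKM, lay within their range. Batch 3 has no day 7 library, so for SEMA3F, SEMA5A and NRP1 it raises the day 0 means of sh003 and control but not of sh004.

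Among 49 genes of semaphorin signalling that are not members, 41 were tested. Without the batch term, limma called 2 with sh003, both lower at day 7, and none with sh004 or in control cells (7 and 9 of the 41 at an unadjusted p under 0.05). Of all tested genes it called 2.35% with sh003, 0.38% with sh004 and 0.956% in control cells. At an unadjusted p under 0.05 were 1601 of all 19461 genes with sh004 and 2733 in control cells. Run on the recovered reads, limma-voom called none of the 41 in any of the 3 backgrounds. FLT1, a receptor for vascular endothelial growth factor, averaged 0.121 ± 0.0438 RPKM at day 7 and 7.30 ± 5.49 RPKM at day 0 with sh003 (SD, n = 3 each; log2 change -3.23, adjusted p = 0.0190). PGF, a growth factor that binds FLT1 and neuropilins, averaged 1.40 ± 0.256 RPKM at day 7 and 7.39 ± 2.60 RPKM at day 0 (log2 change -2.01, adjusted p = 0.0317). Fitted with the batch term, the list had 2 genes up and 4 down with sh003, 1 up with sh004 and 2 up in control cells. That fit called 14.3%, 2.11% and 7.68% of all tested genes in the same order, so these counts do not set the list apart. The sh003 calls included ITGA1 (2.15), an integrin chain, and PAK1 (0.66), a kinase downstream of Rac, both higher, and FLT1 (-3.65) and PGF (-1.72), both lower. The sh004 call was RND1 (1.12), a GTPase that binds plexins, and the control calls were VEGFB (0.55), a neuropilin ligand, and MICAL1 (0.43), a plexin-binding enzyme that oxidises actin. The list's median log2 change was -0.14 with sh003, 0.08 with sh004 and 0.037 in control cells, where it turned to -0.025 with the batch term and -0.081 with median-ratio scaling.

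Promoter sequence was looked at for SEMA4G, since it was called in all 3 backgrounds. RefSeq promoter windows of 300 bases (250 before and 50 after a start, GRCh38.p14) were available for 27 of the 31 members, 48 windows in all. The half-site AGGTCA, which retinoic acid receptors bind in repeats, was searched on both strands. It occurred in 6 of the 48 windows, or 12.5%, against 13.8% of all 35116 windows. The related AGTTCA occurred in 4, or 8.3%, against 10.4%. Of the SEMA4G windows, both on the plus strand of chromosome 10, the downstream one holds AGGTCA on the minus strand at -235, printed in capitals, and the upstream one holds neither motif. A match of these letters is a description of the window, and no binding was measured.

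SEMA4G, chr10:100969254-100969553: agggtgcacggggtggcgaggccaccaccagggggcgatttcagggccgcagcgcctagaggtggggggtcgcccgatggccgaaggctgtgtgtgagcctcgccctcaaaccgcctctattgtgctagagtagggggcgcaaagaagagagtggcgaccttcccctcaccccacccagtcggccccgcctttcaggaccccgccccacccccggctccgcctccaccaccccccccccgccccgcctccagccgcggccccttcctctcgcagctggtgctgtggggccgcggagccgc
SEMA4G, chr10:100972279-100972578: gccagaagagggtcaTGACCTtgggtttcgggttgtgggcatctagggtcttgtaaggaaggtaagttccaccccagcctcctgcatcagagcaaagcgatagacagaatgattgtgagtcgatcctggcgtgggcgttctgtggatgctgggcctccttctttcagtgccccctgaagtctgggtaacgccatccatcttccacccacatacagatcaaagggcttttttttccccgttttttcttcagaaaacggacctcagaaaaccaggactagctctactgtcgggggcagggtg

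The second question is what CASC15 knockdown did within a day. No member passed the test. At day 7, limma called 0 of 26 with sh003 (0% of all tested genes) and 0 of 26 with sh004 (0%), with 8 and 2 members at an unadjusted p under 0.05. At day 0 it called 0 of 26 with sh003 (0.00514%) and 0 of 26 with sh004 (0%), with 3 members at that level in each. With the batch term all 4 counts were 0, beside 0.252% of all genes called for sh003 and 0% for sh004 at day 0, and 0.00514% for sh003 and 0.226% for sh004 at day 7. They were also 0 by limma-voom on the recovered reads. Without the batch term, 1405 of all 19461 genes for sh003 and 1564 for sh004 were at an unadjusted p under 0.05 at day 7. At day 0 the numbers were 1125 and 378. Tests of whether the change with day differed from that of control cells also called 0 of 26 for sh003 (0%) and 0 of 26 for sh004 (0%), with 2 members at an unadjusted p under 0.05 in each. Of all genes, 284 were at that level in each. The counts of called members stayed at 0 with the batch term (0% and 0.0103% of all genes) and by limma-voom. The values that follow are therefore levels and not calls.

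NRP1, the neuropilin that SEMA3A and SEMA3C bind, was the member whose sh003 and control libraries lay farthest apart at day 7 on the log2 scale. It measured 5.09, 10.1 and 12.0 RPKM with sh003 and 2.21 and 1.33 RPKM with sh004, against 1.48 and 1.11 RPKM in control cells. The sh003 libraries were all above both controls. The log2 difference of sh003 from control was 2.34 (SE 0.66, limma adjusted p = 0.566), and with the batch term 2.36 (SE 0.34, adjusted p = 0.103). It was positive in 3 of 3 same-batch pairs, from 1.79 to 2.96. The pairs of sh1 and sh2 in batch 2 share the control library of that batch, so they are not independent. With the batch term NRP1 passed the limma test when sh003 sh1 at day 7 was left out (2.69, adjusted p = 0.0411). It also passed without either sh004 library of day 7, where its difference stayed at 2.36. Those libraries are not in this comparison, and such a fit leaves sh004 at day 7 with 1 library. SEMA6A (0.96), SEMA4B (0.87) and PLXNA1 (0.60) passed in the same fits, all higher with sh003. The share of all genes that passed in them was not counted, and with all libraries it was 0.00514%. These passes are therefore not read as calls for sh003. At day 0 NRP1 measured 21.98, 6.97 and 5.38 RPKM with sh003 and 2.01 and 2.67 RPKM with sh004, against 2.67, 4.45 and 13.8 RPKM in control cells, and sh003 and control overlapped. The difference of sh003 from control at day 0 was 0.25 to 1.24 in its 3 pairs, and whether the day 7 and day 0 differences differ gave an adjusted p of 0.980 with the batch term.

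SEMA6A, a transmembrane ligand of plexins A2 and A4, had its day 7 and day 0 levels on opposite sides in knockdown and control cells. It measured 3.01, 2.63 and 2.63 RPKM with sh003 at day 7, against 1.59, 1.89 and 1.83 RPKM at day 0. With sh004 it measured 1.48 and 1.497 RPKM at day 7, against 1.02 and 0.829 RPKM at day 0. In control cells it measured 1.37 and 1.006 RPKM at day 7, against 1.97, 1.93 and 1.72 RPKM at day 0. Day 7 libraries were the higher ones with both knockdowns and the lower ones in control cells, with no overlap. The change with day differed from that of control cells by 1.02 (SE 0.25, limma adjusted p = 1) with sh003 and 0.98 (SE 0.27, adjusted p = 1) with sh004, and by 1.03 (adjusted p = 0.552) and 1.04 (adjusted p = 0.764) with the batch term.

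Of the 5 tested class 3 ligands, SEMA3C and SEMA3D were above both controls in all 3 sh003 libraries at day 7, and SEMA3A, SEMA3B and SEMA3F overlapped with the controls. SEMA3D, a class 3 ligand, measured 11.7, 6.22 and 10.5 RPKM with sh003 and 6.54 and 0.408 RPKM with sh004 at day 7, against 2.71 and 1.33 RPKM in control cells. The sh003 libraries were above both controls and the sh004 libraries lay on either side of them (sh003 minus control, log2 difference 2.0, SE 0.78, limma adjusted p = 0.607). For SEMA3C at day 7 the difference of sh003 from control was 1.78 (SE 0.70, adjusted p = 0.607), and at day 0 it was 1.76 (SE 0.63, adjusted p = 0.709), where the groups overlapped through the batch 3 control.

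SEMA5B, a transmembrane ligand that binds A plexins in the mouse retina, separated the knockdowns at day 7. It measured 1.78, 1.19 and 1.22 RPKM with sh003 and 5.34 and 11.04 RPKM with sh004, against 4.00 and 3.39 RPKM in control cells. The sh003 libraries were under and the sh004 libraries above both controls. The log2 difference from control was -1.16 (SE 0.51, limma adjusted p = 0.675) with sh003 and 0.97 (SE 0.56, adjusted p = 0.728) with sh004.

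PLXNA4, the receptor plexin of SEMA6A and of SEMA3A with NRP1, had its highest day 0 levels with sh003. It measured 13.8, 48.3 and 42.3 RPKM with sh003 and 3.31 and 7.89 RPKM with sh004, against 6.26, 13.1 and 4.61 RPKM in control cells. All sh003 libraries were above all controls, the lowest of them by a small margin. The log2 difference of sh003 from control was 2.0 (SE 0.75, limma adjusted p = 0.757) and with the batch term 2.0 (SE 0.66, adjusted p = 0.266). At day 7 PLXNA4 measured 4.96, 45.9 and 22.8 RPKM with sh003 and 8.72 and 19.4 RPKM with sh004, against 24.3 and 18.6 RPKM in control cells, and the groups overlapped.

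**Figure D4:**
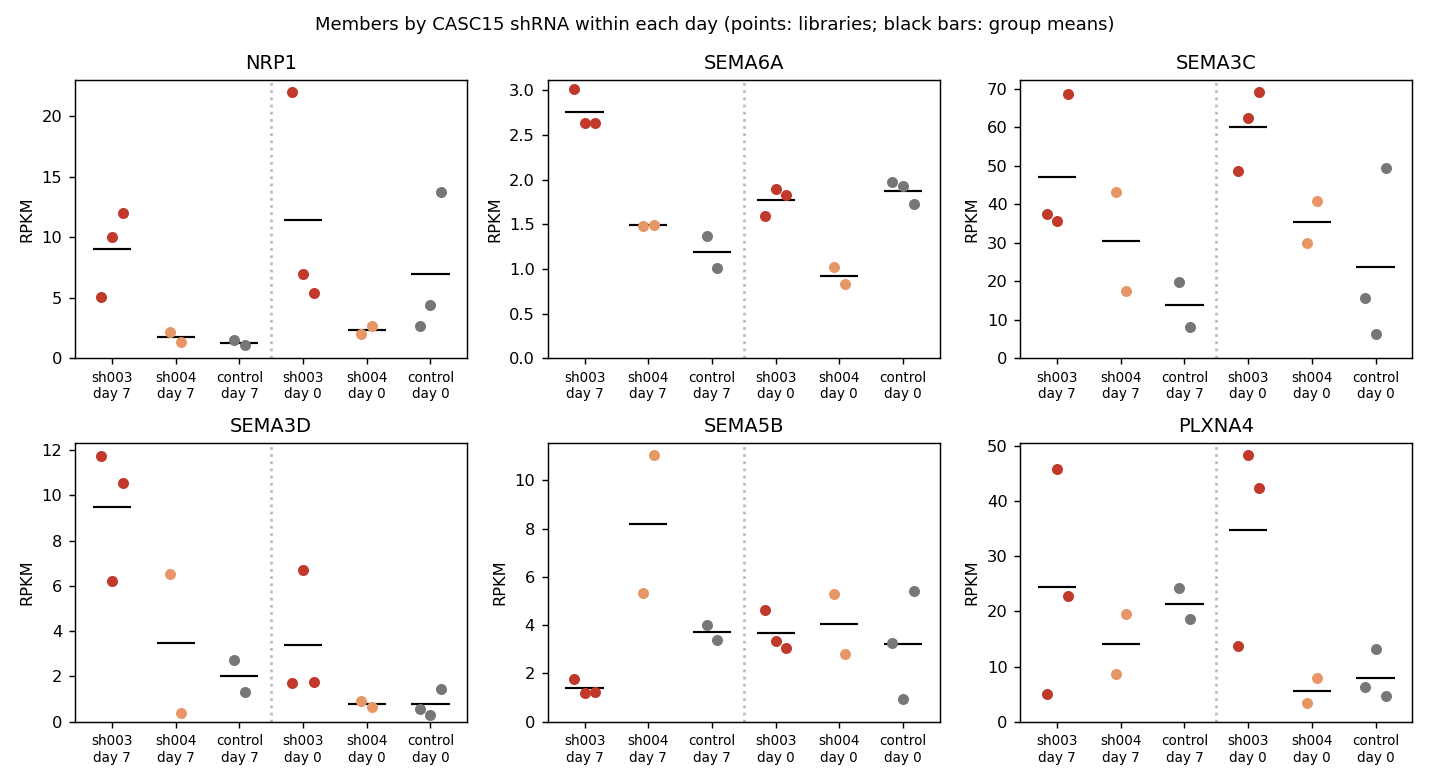
RPKM by library with sh003, with sh004 and in control cells at day 7 and at day 0 for 6 members, with group means as black bars. The 3 sh003 points of NRP1 at day 7 lie at 5.09 to 12.0 RPKM against control points at 1.48 and 1.11 RPKM, and none of the 6 members was called.

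Cell-state markers also lay at different levels in these groups. At day 7 the summed RPKM of 10 markers of the mesenchymal state of neuroblastoma ran from 301 to 338 with sh003 and from 160 to 263 with sh004, against 124 to 250 in control cells. At day 0 it ran from 316 to 490 with sh003 and from 244 to 341 with sh004, against 192 to 320 in control cells. In each monolayer group 7 or 8 of the 10 reached an RPKM of 1 in every library. The noradrenergic sum at day 7 lay at 749.7 to 1145 with sh003 and 703 to 3026 with sh004, against 1389 to 1433 in control cells. The median log2 difference of its 11 tested genes from control at day 7 was -1.03 with sh003 and -0.15 with sh004. The part of both marker lists in the NRP1, SEMA3C, SEMA3D and PLXNA4 values was not tested. Among the 41 tested pathway genes, limma without the batch term and limma-voom called none in any knockdown comparison. At an unadjusted limma p under 0.05 without that term were 4 for sh003 and 1 for sh004 at day 0, and 8 and 4 at day 7. In the same order, 1125, 378, 1405 and 1564 of all 19461 tested genes were at that level. In the fit with the batch term, FLT1 was higher with sh003 at day 0 (7.30 ± 5.49 RPKM with sh003 and 0.467 ± 0.203 RPKM in control cells, SD, n = 3 each, log2 difference 2.61, adjusted p = 0.0464). RND1 was higher with sh004 at day 7 (2.66 ± 0.597 RPKM with sh004 and 0.385 ± 0.159 RPKM in control cells, SD, n = 2 each, log2 difference 1.70, adjusted p = 0.0194). Of all tested genes, that fit called 0.252% for sh003 at day 0 and 0.226% for sh004 at day 7.

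In spheres, 24 members reached an RPKM of 1 in at least 2 of the 5 libraries. PLXNA2, SEMA3D and SEMA5A, tested in monolayers, did not, and SEMA6B, not tested there, did. Against the single control sphere, limma called 0 of 24 members with sh003 (0% of all 14711 tested genes) and 0 of 24 with sh004 (0.129%). Limma-voom called 0 in both. At an unadjusted limma p under 0.05 were 5 and 6 members, beside 2811 and 3268 of all 14711 tested genes. The fit takes the 1 control library to vary as much as the knockdown spheres do. In the order sh1 and sh2, SEMA5B measured 9.96 and 3.03 RPKM in sh003 spheres and 12.2 and 9.23 RPKM in sh004 spheres, against 0.335 RPKM in the control sphere. All 4 knockdown spheres were above the control (log2 difference 2.86, SE 0.61, limma adjusted p = 0.179 with sh003, and 3.74, SE 0.61, adjusted p = 0.0939 with sh004). SEMA3A, the main repellent of sympathetic axons, measured 21.4 and 10.3 RPKM in sh003 and 36.6 and 18.9 RPKM in sh004 spheres, against 7.24 RPKM in the control sphere, and likewise lay above it in all 4.

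Between the knockdowns, sh003 and sh004 spheres differed widely, with 39.9% of all tested genes called. Of the 24 members 4 were called, and none of these calls held without the filter on low values (adjusted p = 0.0771 to 0.234) or with the RPKM as deposited (0.0575 to 0.904). SEMA3B, a secreted ligand known as a candidate tumour suppressor, measured 2.82 and 2.77 RPKM in sh003 and 8.36 and 7.75 RPKM in sh004 spheres (3.11 RPKM in the control sphere), a log2 difference of -1.38 for sh003 minus sh004 (SE 0.21, limma adjusted p = 0.00893). PLXNB1 measured 16.8 and 13.5 RPKM in sh003 and 24.6 and 22.4 RPKM in sh004 spheres (19.4 RPKM in the control), a log2 difference of -0.63 (SE 0.20, adjusted p = 0.0495). SEMA3C measured 4.33 and 26.1 RPKM in sh003 and 1.16 and 1.71 RPKM in sh004 spheres (0.452 RPKM in the control), a log2 difference of 2.57 (SE 0.74, adjusted p = 0.0368). NRP2 measured 4.73 and 2.497 RPKM in sh003 and 1.62 and 1.27 RPKM in sh004 spheres (4.89 RPKM in the control), a log2 difference of 1.03 (SE 0.33, adjusted p = 0.0495). None of the 4 overlapped between the knockdowns. The SEMA3B call ended without sh004 sh2 (adjusted p = 0.0515). The SEMA3C difference was 1.34 (0.0587) without sh003 sh2, 2.36 (0.139) without sh004 sh1 and 2.77 (0.112) without sh004 sh2. Leaving out sh003 sh1 gave 0.63 (0.177) for NRP2 and -0.78 (0.0567) for PLXNB1, and leaving out sh003 sh2 gave -0.47 (0.208) for PLXNB1. Without sh004 sh1 or sh004 sh2, NRP2 (0.109 and 0.187) and PLXNB1 (0.162 and 0.118) were not called, and without the control sphere NRP2 was not called (0.0510).

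Of the 40 pathway genes tested in spheres, 20 differed between sh003 and sh004, 12 higher and 8 lower with sh003, beside the 39.9% of all genes. Among those with large differences were VEGFA (log2 difference 3.46, limma adjusted p = 0.00756) and NRCAM (2.77, 0.0221), an adhesion molecule that associates with NRP2 in mouse neurons, both higher with sh003. PGF (-2.57, 0.0105), VEGFB (-1.79, 0.00867) and RRAS (-1.64, 0.0215), the GTPase that plexins inactivate, were lower.

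Spheres and monolayers are separate tables and were not tested against each other. The share of all genes whose ranges do not overlap was not counted, so the separations that follow cannot be read as particular to the members. PLXNA2 lay at 0.0995 to 0.606 RPKM in the 5 spheres, against 13.1 to 35.5 RPKM in the 8 day 0 monolayers. PLXNA4 lay at 0.405 to 2.06 RPKM in spheres against 3.31 to 48.3 RPKM in monolayers, and PLXNA1 at 8.02 to 11.6 RPKM against 20.3 to 38.1 RPKM. Those 3 were the members whose sphere range lay wholly under the day 0 range. SEMA6A, the ligand of plexins A2 and A4, was the only member wholly above it, at 2.99 to 12.3 RPKM in spheres against 0.829 to 1.97 RPKM in monolayers. The other 27 members overlapped. Among them SEMA3C spanned 0.452 to 26.1 RPKM in spheres and 6.36 to 69.2 RPKM in monolayers, and PLXNA3 lay at 10.5 to 15.3 RPKM in spheres and 9.44 to 21.4 RPKM in monolayers.

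The last comparison is of SOX9 siRNA with control siRNA in KELLY cells, 1 library each, so no test was made. SOX9 itself measured 0.974 RPKM with its siRNA and 5.61 RPKM with the control siRNA. PLXNA2 measured 7.85 RPKM with SOX9 siRNA (2598 reads), against 16.7 RPKM with control siRNA (5847 reads). Its log2 ratio of RPKM + 0.5 was -1.04, and the 95% exact (Clopper-Pearson) interval of the log2 read ratio, which covers counting error only, was -1.15 to -1.02. It was the only member of the 22 kept in KELLY with an absolute log2 ratio of at least 1, a size reached by 4% of all 14340 genes kept. SEMA3F came next, at 10.8 RPKM with SOX9 siRNA and 5.50 RPKM with control siRNA (log2 ratio 0.91, interval of the read ratio 0.84 to 1.11). The median ratio of the 22 was 0.01, against 0.05 over all genes. Of 39 pathway genes kept none reached an absolute log2 ratio of 1 on the same scale.

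KELLY and SH-SY5Y also differed in which members they held. MYCN, amplified in KELLY, lay at 1052 RPKM with SOX9 siRNA and 787 RPKM with control siRNA, against 0.0831 to 4.86 RPKM in the SH-SY5Y monolayers. PLXND1 measured 26.9 RPKM with SOX9 siRNA and 25.5 RPKM with control siRNA in KELLY, against 1.06 to 5.33 RPKM in the monolayers. Its ligand SEMA3E, at 3.35 and 2.28 RPKM in KELLY, did not exceed 0.0344 RPKM in any of the 20 SH-SY5Y libraries. KELLY libraries were above all 15 monolayers for 5 members, under all 15 for 12 and overlapped for 14. The share of all genes outside the monolayer range was not counted, so these counts cannot be read as particular to the members. SEMA6A (13.3 and 12.8 RPKM) and PLXNB3 (12.2 and 10.9 RPKM) were among the 5, and SEMA3A (0.725 and 0.494 RPKM) and SEMA6C (0.419 and 0.571 RPKM) among the 12. PLXNB3, a receptor of SEMA5A, shares 20.4% of its exon bases with SRPK3 on the same strand. These lines were sequenced in separate tables, and no test was made between them.

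**Figure D5:**
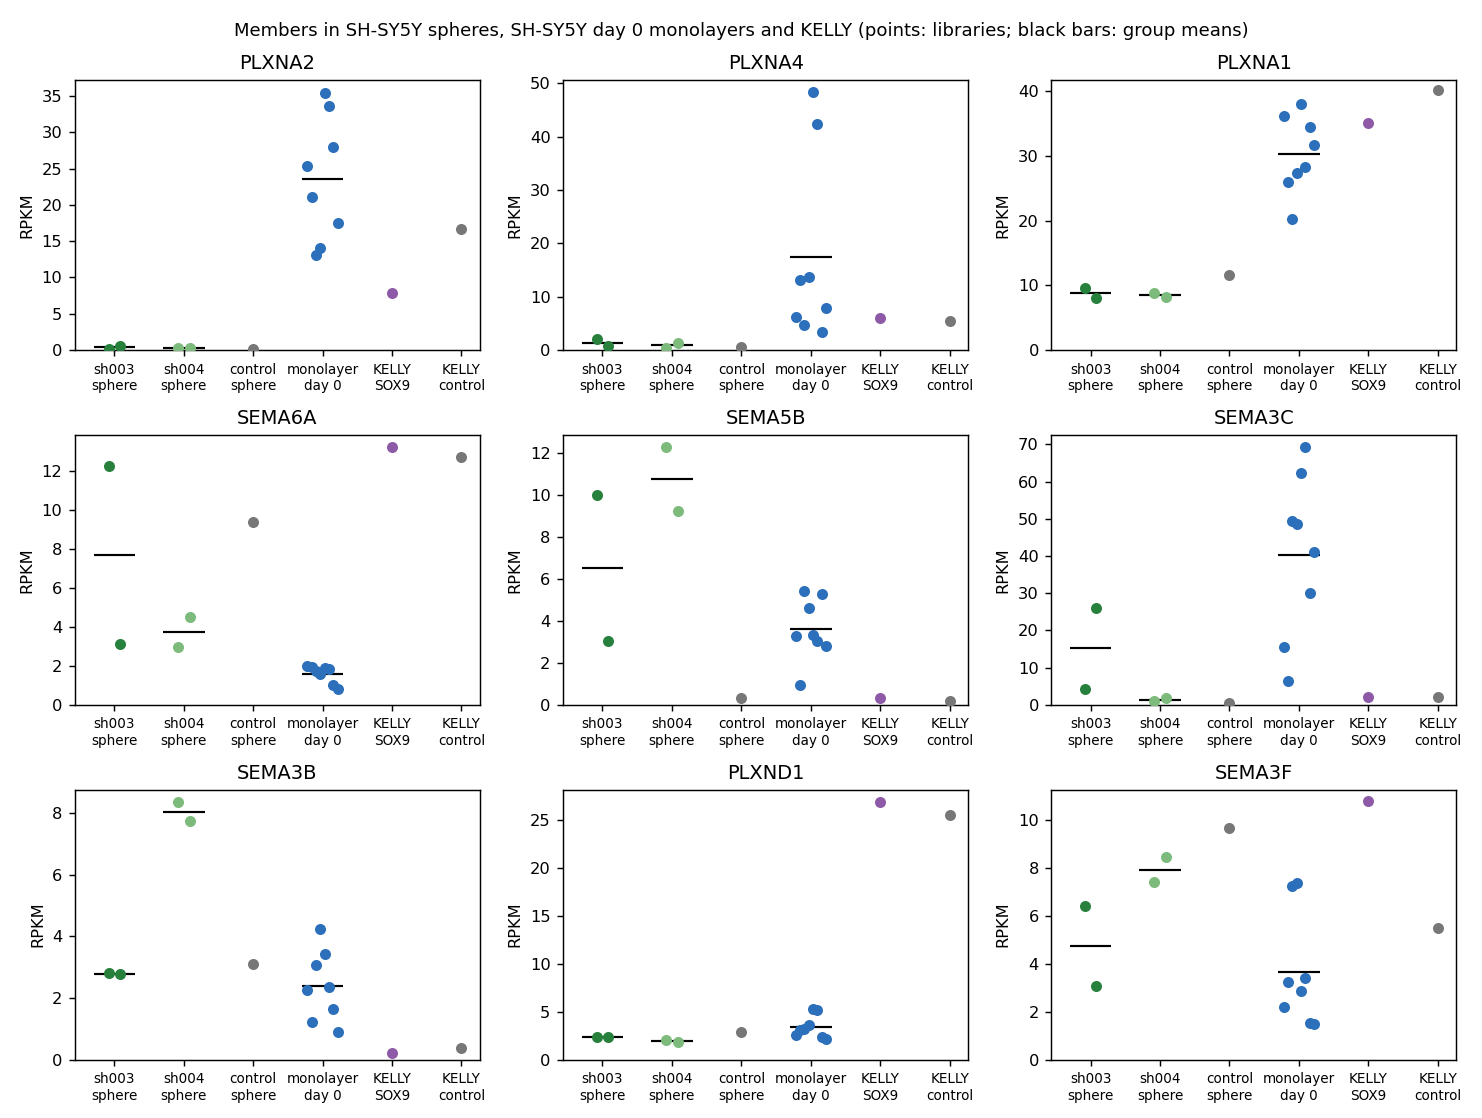
RPKM by library for 9 members in SH-SY5Y spheres (sh003, sh004, control), in the 8 SH-SY5Y day 0 monolayers and in KELLY with SOX9 or control siRNA. Black bars are means of groups with more than 1 library. PLXNA2 lies at 0.606 RPKM or less in spheres and 13.1 RPKM or more in monolayers, and at 7.85 RPKM with SOX9 siRNA and 16.7 RPKM with control siRNA in KELLY.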

How the data were processed

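Total RNA was sequenced after removal of ribosomal RNA, with a stranded kit, per the labels' protocols. Per the submitters' processing notes, TopHat, Subread and featureCounts were used on genome build hg19. Their versions, the annotation and the strand setting are not given in the sources used here. The authors deposited RPKM per gene in 3 tables (monolayers, spheres, KELLY). From these the read count of every gene was worked back, and all came within 0.01 of a whole number. Sphere values had been scaled with 10 totals in rotation from gene to gene, so sphere RPKM was recomputed with each library's own total. Depth was 11.9 M to 62.1 M reads, and intervals cover counting error only.

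Genes at an RPKM of 1 or above in 2 or more libraries were tested with limma 3.58.1 in R 4.3.3 on log2(RPKM + 0.5), with a mean-variance trend and all groups of a table in 1 fit. Fold changes on this scale understate those of low genes. A call needed a Benjamini-Hochberg adjusted p under 0.05 over all genes tested. The scripts were tested on simulated data. The batch number comes from the labels. Same-batch libraries of sh003 and control deviated together, with correlations of 0.716 to 0.942 over 16 pairs (median 0.818). Over 29 pairs from different batches they ran from -0.92 to 0.744 (median -0.792), so the ranges overlap. The sh004 libraries were not in this check. The fit with a batch term is given where it changes a call. KELLY genes were kept at an RPKM of 1 in either library. Nothing says that replicates are separate cultures, so p-values measure the spread between these libraries. Values for every library are given for members called in any comparison, for the 6 highest monolayer means and for those past the KELLY fold, and at most 6 called pathway genes are named per comparison by size, of which a few are not reported here. SEMA6A, SEMA3A, SEMA3D, SEMA5A, SEMA5B, NRP1, PLXNA4, PLXNB3 and the KELLY values of other members were added after their values were seen. The members and lists were chosen with earlier results of these data known. Of the gene identifiers 52181 of 63677 matched the reference names. Sequences are from the labels and RefSeq.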

Additional observations from a re-analysis of the deposited data

How the results depend on the processing

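Besides the fits described, pseudocounts of 0.1 and 1, no filter on low values, median-ratio scaling, limma-voom on the recovered reads, a replicate block (the batch term) and fits without each library were run. No log2 change of a called member turned its direction. The pathway list's median in control cells at day 7 over day 0, 0.037, was -0.025 with the block and -0.081 with median-ratio scaling. At day 7 over day 0 with sh003, 2 members were called, 6 with the replicate block, 1 without the libraries whose tag contradicts the title, 4 without batch 3 and 0 without batch 1. Leaving out 1 library gave 1 to 4, or 3 to 10 with the block. With sh004 1 was called, 3 with the replicate block, 0 without the tag-contradicting libraries and 0 without batch 1, with 0 to 2 when 1 library was left out, or 0 to 5 with the block. In control cells 1 was called, 5 with the replicate block and 0 without batch 1, with 0 to 2, or 0 to 10 with the block. Against control at day 7, leaving out 1 library with the block let NRP1, SEMA6A, SEMA4B and PLXNA1 pass in some fits for sh003, as given above. For sh004, PLXNA2 (-1.55) passed without sh004 sh1, a fit that leaves sh004 at day 7 with 1 library. The share of all genes called in these fits, and in the fits above that left out libraries, is not given here. The counts of members in them therefore cannot be read as particular to the members. In spheres, the RPKM as deposited gave 1 member each for sh003 and sh004 against control, where leaving out 1 library gave 0 to 1. Between the knockdown spheres 4 were called, 0 without the filter, 0 with the RPKM as deposited and 0 to 5 without 1 library. The share of all genes called in the altered sphere fits is not given here either. The cause of the differences between fits was not tested. No paired analysis was possible for the spheres because the control sphere is 1 library and sphere numbers name different shRNAs. Fits without batch 3, without batch 1 and with the block and a library left out were chosen after seeing the data. Scaling by median ratios moved the median of all genes by -0.113 in control cells at day 7 over day 0, 0.111 for sh004 against control at day 7 and 0.106 for sh004 against control spheres. In control cells it split all calls 89 higher and 65 lower, against 137 and 49. With sh003 that split was 235 and 260, against 305 and 153. Among members it gave 1 higher and 2 lower between the knockdown spheres, against 2 and 2. The lowest members, such as SEMA3E, hold too few reads for a change to be seen.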
